A study of Danio rerio with 10 samples.

Results

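The fast muscle sarcomere and energy genes encode the contractile filaments, the calcium machinery and the high-energy phosphate and glycolytic enzymes of fast-twitch skeletal muscle. Not all are exclusive to fast fibers, and *ryr1a* is used mainly in slow ones. They were chosen by name as 48 gene symbols, and every row of the count table with one of these symbols and at least 10 counts summed over the libraries was kept. This gave 49 of the 32520 genes in the table, because *myhz1.1* stands beside 2 Ensembl identifiers. Counts had been made from EGFP-positive cells of *Tg(Mmu:Prx1-EGFP)* zebrafish, in which a mouse *Prx1* enhancer drives EGFP in the pectoral fin, the pharyngeal arches and the dorsal head. All 4 libraries carried this transgene and came from embryos at 48 hpf, with 2 libraries from WT embryos and 2 from *prdm1a*-/- embryos homozygous for the m805 allele (prdm1am805/m805, also called nrd), a presumed null allele with a premature stop in the SET domain. The embryos were pooled, the head and arches were cut away before dissociation, and EGFP-positive cells were sorted. The paper allows that some arch and dorsal head tissue may have been left. Each library is thus a pool of embryos, and trunk tissue was part of what went into the sorter. The labels call the libraries biological replicates 1 and 2 of each genotype.

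Skeletal muscle shortens when myosin heads on the thick filament pull on the actin of the thin filament. Calcium released from the sarcoplasmic reticulum binds troponin C and frees the actin, and the calcium pump then returns it to the store. Fast fibers use their own myosin, troponin and calcium pump isoforms and rely on creatine kinase and glycolysis for quick supplies of ATP, while slow fibers use another set of isoforms. In zebrafish, Prdm1a is known as the switch that commits muscle precursors to the slow fate and keeps fast muscle genes off in them, and embryos without it lack most early slow fibers. The pectoral fin muscles at this age come from migrating somite cells that enter the fin bud. The data address whether transcripts of fast muscle genes differed between the genotypes in this sort.

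The replicate numbers stood further apart than the genotypes did. The 2 WT libraries held 22865061 (replicate 1) and 22008119 (replicate 2) counts on genes, and the 2 *prdm1a*-/- libraries held 20303621 and 26798799. The first principal component, with 68.4% of the variance, separated the replicate numbers, and the second, with 19.9%, separated the genotypes. Levels are given as CPM, the counts of a gene relative to the library total after TMM scaling in edgeR, which sets libraries on a common scale without correcting for gene length, so they are compared within a gene and not between genes. A count of 0 allows up to 3 counts, or 0.112 to 0.148 CPM in these libraries. The targeted gene does not check the labels, because the allele is a stop codon and its transcript is still counted: *prdm1a* was at 50.1 and 232 CPM in WT and at 123 and 302 CPM in *prdm1a*-/- (edgeR with the replicate number as a block, adjusted p = 0.0932). With the block, its adjusted p was 0.0462 in DESeq2 and 0.0352 in limma-voom, and between 0.00368 and 0.166 under 6 fits. In edgeR with genotype alone it was 0.9999. Fin mesenchyme markers were found in every library, with 0 of 12 at 0, and *prrx1a* was at 254 and 227 CPM in WT and 296 and 202 CPM in *prdm1a*-/-. Wherever 2 values are given for a genotype, the first is replicate 1 and the second replicate 2.

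Fast muscle transcripts made up 3.35% of the counts in WT replicate 1, 2.89% in *prdm1a*-/- replicate 1, 0.452% in WT replicate 2 and 0.706% in *prdm1a*-/- replicate 2. Summed over the 49 genes, the level in replicate 1 was 7.56 times that in replicate 2 in WT and 3.95 times in *prdm1a*-/-. The genotype ratio of this sum ran in opposite directions in the 2 pairs, at 0.86 *prdm1a*-/- over WT in replicates 1 and 1.65 in replicates 2. Both *prdm1a*-/- values lay inside the WT range. With 1 pair in each direction and no residual degree of freedom for it, the difference between the pairs could not be tested. In sorted bulk cells, fewer muscle cells and less muscle RNA per cell cannot be told apart.

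**Figure D1:**
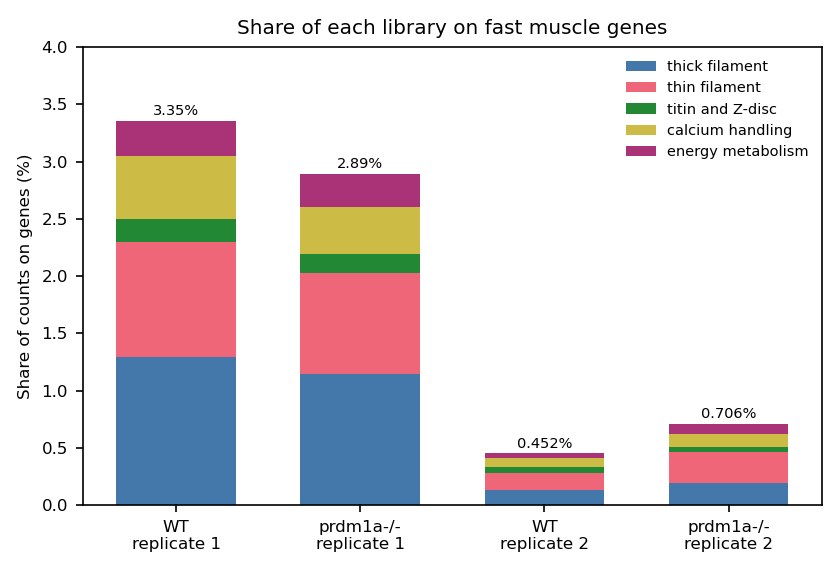
Percent of the counts on genes (vertical axis) that fell on the 49 fast muscle genes in each of the 4 libraries, stacked by role. The replicate 1 libraries stood at 3.35% and 2.89% and the replicate 2 libraries at 0.452% and 0.706%, so the bars differ more by replicate number than by genotype.

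The libraries were compared by edgeR's quasi-likelihood test on the counts of all genes, with genotype and replicate number as terms, so that genotypes are set against each other within a number. Benjamini-Hochberg adjustment was over the 20007 genes that passed the filter on low counts. Of the 49 fast muscle genes 47 passed this filter, and *mybpc2a* and *tnni2a.3* did not. One gene was called at an adjusted p under 0.05, *myhb*, which was lower in *prdm1a*-/-, against 1.01% of all genes tested (0.62% lower and 0.395% higher). At an unadjusted p under 0.05 there were 16 of 47, of which 12 were higher and 4 lower, against 12.4% of all genes tested (6.4% higher and 6.05% lower). Some of these moved in opposite directions in the 2 pairs, such as *tpma* (log2 ratios -0.09 and 1.53). With genotype alone in the model, 0 of 47 were called and 2 had an unadjusted p under 0.05, against 0% and 1.88% of all genes tested. With the block, DESeq2 called 1 of 47 (1.21% of all genes) and limma-voom 2 of 47 (2.17% of all genes), and with genotype alone DESeq2 called 0 of 47 (0.25% of all genes) and limma-voom 0 of 47 (0% of all genes).

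The fitted log2 fold changes of *prdm1a*-/- over WT had a median of 0.34 over the 47 genes and 0.0068 over all genes tested, and 35 of 47 were above 0 (50.7% of all genes). This median is the average of 2 unlike pairs. In replicates 1 the median log2 ratio was -0.22 and 36 of 47 genes were lower in *prdm1a*-/- (49.9% of all genes), and in replicates 2 it was 0.88 and 41 of 47 were higher (50% of all genes). The most common order was lower in the first pair and higher in the second, in 30 of 47 (20.2% of all genes), while 11 were higher in both (29.7%) and 6 were lower in both (29.7%). With genotype alone the median was -0.08 and 20 of 47 were above 0 in edgeR, and 0.35 and 35 of 47 in limma-voom. The CPM of the genotypes overlapped for 43 of the 47, while 3 were lower in both *prdm1a*-/- libraries than in either WT library (*myhb*, the second *myhz1.1* identifier and *acta1a*, against 13.5% of all genes) and 1 was higher (*tnni2a.1*, against 12.7%).

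The same genes differed by replicate number in both genotypes. For 41 of 47 the level in replicate 1 was above that in replicate 2 in WT and in *prdm1a*-/- (37.1% of all genes), and for 15 of 47 it was over 4 times as high in both (1.53% of all genes). The 6 that did not share this order were *myhb*, the second *myhz1.1* identifier, *acta1a*, *tnni2a.1*, *tnni2b.2* and *ryr1a*. The median log2 difference of replicate 2 from replicate 1 in the fit was -2.28 over the 47 genes and -0.0009 over all genes tested.

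**Figure D2:**
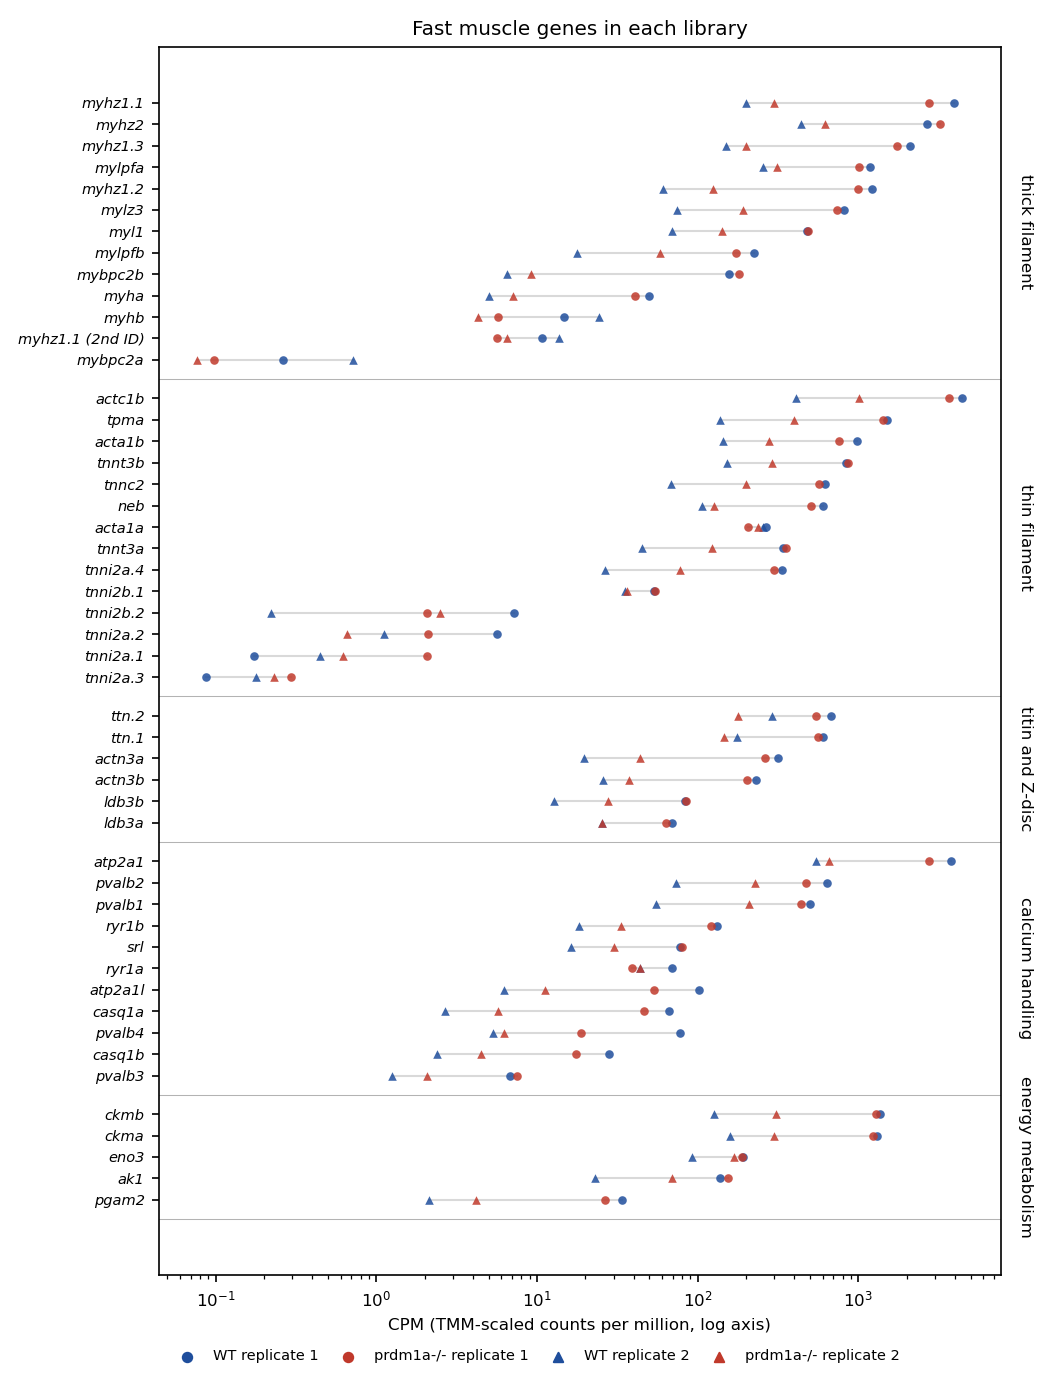
CPM of each fast muscle gene in each library on a log axis, grouped by role, with circles for replicates 1 and triangles for replicates 2, blue for WT and red for *prdm1a*-/-. For most genes the circles lie together to the right and the triangles to the left, while *myhb* and the second *myhz1.1* identifier have both red symbols below both blue ones.

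Thick filament genes included the only call. *myhb*, a fast myosin heavy chain, had 336 and 548 counts in WT and 116 and 112 counts in *prdm1a*-/-, which is 14.7 and 24.4 CPM against 5.68 and 4.31 CPM. The genotypes did not overlap, and the WT mean was 19.5 ± 6.87 CPM (SD, n = 2) against 5.0 ± 0.968 CPM (SD, n = 2). Its log2 fold change in edgeR was -1.94 (SE 0.30, adjusted p = 0.0124), with log2 ratios of -1.35 in replicates 1 and -2.47 in replicates 2. With the block, its adjusted p was between 2.66e-05 and 0.0385 under 6 fits, and with genotype alone it was 0.9999 in edgeR (unadjusted p = 0.00631) and 0.0563 in DESeq2, so the call was lost there. Unlike in the clustered heavy chains, the WT level was higher in replicate 2 than in replicate 1.

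The clustered heavy chain genes *myhz2*, *myha*, *myhz1.3*, *myhz1.2* and *myhz1.1* neighbour each other in this order in the RefSeq annotation of GRCz12tu, with 1 other gene after *myhz2*. *myhz1.1* was at 3954 and 200 CPM in WT and at 2751 and 300 CPM in *prdm1a*-/-, which is lower in the first pair (log2 ratio -0.52) and higher in the second (0.58). *myhz1.2* had the same order, with 1223 and 61.0 CPM in WT against 995 and 125 CPM. *myhz1.3* was at 2113 and 151 CPM in WT and at 1743 and 201 CPM in *prdm1a*-/-. For these 3 genes the replicate 1 libraries of both genotypes lay far above both replicate 2 libraries. *myhz2* differed from them in being higher in *prdm1a*-/- in both pairs, with 2688 and 438 CPM in WT and 3238 and 620 CPM in *prdm1a*-/- (log2 fold change 0.39, SE 0.15, edgeR adjusted p = 0.314). *myha* was at 50.1 and 5.03 CPM in WT and at 40.8 and 7.13 CPM in *prdm1a*-/-. The second *myhz1.1* identifier (ENSDARG00000102414, named myhz1.1l in the Ensembl name table) did not follow the cluster and was at 10.7 and 13.7 CPM in WT against 5.63 and 6.51 CPM (log2 fold change -0.997, SE 0.25, edgeR adjusted p = 0.114). It passed the threshold only without the filter on low counts (adjusted p = 0.0375). These heavy chains are close copies, so reads could have been split or shared among them in counting.

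The myosin light chains followed the common order. *mylpfa* and *mylpfb* encode the fast regulatory light chains that sit at the lever arm of the myosin head. *mylpfa* was at 1184 and 255 CPM in WT and at 1014 and 311 CPM in *prdm1a*-/- (log2 fold change 0.03, SE 0.16, edgeR adjusted p = 0.969). *mylpfb* was at 226 and 17.7 CPM in WT and at 174 and 58.7 CPM in *prdm1a*-/-, a log2 ratio of -0.37 in the first pair and 1.73 in the second. Of the essential light chains, *mylz3* was at 818 and 74.1 CPM against 739 and 191 CPM, and *myl1* at 481 and 69.1 CPM against 484 and 141 CPM. Each light chain thus had nearly equal or lower levels in *prdm1a*-/- in replicates 1 and higher ones in replicates 2. Myosin binding protein C ties myosin molecules together along the thick filament. Its fast form *mybpc2b* was at 156 and 6.54 CPM in WT and at 182 and 9.17 CPM in *prdm1a*-/-, the widest replicate gap in *prdm1a*-/- of the 49 genes (19.9-fold). *mybpc2a* had 6 and 16 counts in WT and 2 and 2 counts in *prdm1a*-/-, too few to be tested. Over the 12 thick filament genes tested, the median log2 fold change was 0.20, with pair medians of -0.29 and 0.50.

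Thin filament genes had 0 of 13 called (1.01% of all genes), with a median log2 fold change of 0.47 and pair medians of -0.16 and 0.94. The actin gene *actc1b* was at 4450 and 412 CPM in WT and at 3695 and 1007 CPM in *prdm1a*-/- (log2 fold change 0.51, SE 0.29, edgeR adjusted p = 0.536). Skeletal α-actin comes from *acta1a* and *acta1b*, and these 2 copies behaved unlike each other. *acta1b* was at 980 and 145 CPM in WT and at 763 and 277 CPM in *prdm1a*-/-, in the common order. *acta1a* had nearly the same level in both replicate numbers, with 265 and 254 CPM in WT against 204 and 239 CPM, and did not overlap between genotypes although its log2 fold change was -0.23 (SE 0.14, edgeR adjusted p = 0.558). Actin genes are also near-identical in their coding sequence, so reads may be split between them. Nebulin, the ruler of the thin filament, had 606 and 107 CPM of *neb* in WT and 507 and 126 CPM in *prdm1a*-/-.

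Tropomyosin, troponin C and troponin T genes, which regulate the thin filament, had genotype ratios near 1 in replicates 1 and above 1 in replicates 2. *tpma*, which encodes the tropomyosin that covers the myosin sites on actin, was at 1516 and 138 CPM in WT and at 1429 and 399 CPM in *prdm1a*-/-. Its log2 ratio was -0.09 in replicates 1 and 1.53 in replicates 2 (log2 fold change 0.72, SE 0.30, edgeR adjusted p = 0.364). The calcium sensor *tnnc2* had 624 and 68.5 CPM in WT and 572 and 201 CPM in *prdm1a*-/- (log2 fold change 0.71, SE 0.31, edgeR adjusted p = 0.387). Of the fast troponin T genes, *tnnt3a* was at 338 and 44.8 CPM against 356 and 123 CPM (log2 fold change 0.76, SE 0.26, edgeR adjusted p = 0.266), and *tnnt3b* at 842 and 153 CPM against 861 and 289 CPM. In the first pair these 4 genes were within 0.13 of equality on the log2 scale, and in the second all were higher in *prdm1a*-/-.

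Troponin I, the inhibitory subunit, is encoded by 6 fast genes here, which did not share a pattern. *tnni2a.4* followed the common order, with 333 and 26.4 CPM in WT and 298 and 77.5 CPM in *prdm1a*-/-. Its 3 neighbours on the chromosome had low counts. *tnni2a.1* had 4 and 10 counts in WT and 42 and 16 in *prdm1a*-/- (log2 fold change 1.92, SE 1.03, edgeR adjusted p = 0.495), and both *prdm1a*-/- libraries lay above both WT libraries. *tnni2a.2* had 130 and 25 counts in WT and 43 and 17 in *prdm1a*-/-. *tnni2a.3* had 2 and 4 counts in WT and 6 and 6 in *prdm1a*-/- and was not tested. *tnni2b.1* was nearly even between genotypes, with 53.5 and 35.4 CPM in WT and 54.5 and 36.1 CPM in *prdm1a*-/-, a log2 ratio of 0.03 in both pairs. Its neighbour *tnni2b.2* had 165 and 5 counts in WT and 42 and 65 in *prdm1a*-/-, so the pairs moved by -1.76 and 3.07 on the log2 scale.

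Titin and Z-disc genes had 0 of 6 called (1.01% of all genes) and a median log2 fold change of 0.055. The 2 titin genes, whose giant protein spans from the Z-disc to the middle of the sarcomere, were lower in *prdm1a*-/- in both pairs. *ttn.2* was at 680 and 291 CPM in WT and at 542 and 178 CPM in *prdm1a*-/-, with log2 ratios of -0.33 and -0.71 (log2 fold change -0.52, SE 0.15, edgeR adjusted p = 0.163). *ttn.1* was at 603 and 177 CPM in WT and at 561 and 147 CPM in *prdm1a*-/-. In both genes the replicate 1 libraries stayed above the replicate 2 libraries, so the genotypes overlapped. α-Actinin 3 crosslinks actin at the Z-disc, and *actn3a* was at 318 and 19.6 CPM in WT and 263 and 43.9 CPM in *prdm1a*-/-, with *actn3b* at 229 and 25.7 CPM against 204 and 37.5 CPM. The Z-disc adaptor *ldb3a* was at 69.6 and 25.5 CPM in WT and 63.6 and 25.6 CPM in *prdm1a*-/-, and *ldb3b* at 83.4 and 12.7 CPM against 84.9 and 27.7 CPM.

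Calcium handling genes had 0 of 11 called (1.01% of all genes). Of these, 9 of 11 were lower in *prdm1a*-/- in replicates 1 and higher in replicates 2 (20.2% of all genes). *atp2a1* encodes the fast calcium pump of the sarcoplasmic reticulum and was at 3796 and 547 CPM in WT and at 2753 and 655 CPM in *prdm1a*-/- (log2 fold change -0.10, SE 0.18, edgeR adjusted p = 0.882). Its paralog *atp2a1l* was at 102 and 6.23 CPM in WT and at 53.2 and 11.2 CPM in *prdm1a*-/-. Parvalbumins soak up calcium and speed relaxation. *pvalb4* had the lowest ratio of all members in the first pair, with 77.5 and 5.34 CPM in WT and 18.8 and 6.24 CPM in *prdm1a*-/- (log2 ratios -2.04 and 0.22, log2 fold change -1.02, SE 0.42, edgeR adjusted p = 0.355), and limma-voom with the block called it (adjusted p = 0.024). *pvalb1* had the common order, at 498 and 55.3 CPM in WT and 439 and 208 CPM in *prdm1a*-/- (log2 ratios -0.18 and 1.91), as did *pvalb2*, at 638 and 73.6 CPM against 474 and 229 CPM. *pvalb3* was at 6.76 and 1.25 CPM in WT and at 7.55 and 2.08 CPM in *prdm1a*-/-.

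The genes of the calcium store and its release channel had the same order apart from *srl*, and in *ryr1a* the second pair was nearly even. Calsequestrin, the calcium buffer of the store, had 66.5 and 2.67 CPM of *casq1a* in WT and 46.1 and 5.74 CPM in *prdm1a*-/-, and 28.2 and 2.40 CPM of *casq1b* against 17.6 and 4.51 CPM. The release channel gene *ryr1b*, used in zebrafish fast fibers, was at 132 and 18.2 CPM in WT and at 121 and 33.6 CPM in *prdm1a*-/-. *ryr1a*, used mainly in zebrafish slow fibers, was at 69.3 and 43.5 CPM in WT and 39.0 and 43.8 CPM in *prdm1a*-/- (log2 fold change -0.41, SE 0.20, edgeR adjusted p = 0.437). Sarcalumenin, a calcium-binding protein of the reticulum, had 77.4 and 16.2 CPM of *srl* in WT and 80.5 and 30.2 CPM in *prdm1a*-/-.

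Energy genes had 0 of 5 called (1.01% of all genes). All 5 had fitted log2 fold changes above 0 (50.7% of all genes), with a median of 0.42 and pair medians of -0.08 and 0.93. Muscle creatine kinase rebuilds ATP from phosphocreatine, and *ckmb* was at 1365 and 126 CPM in WT and at 1289 and 308 CPM in *prdm1a*-/- (log2 fold change 0.60, SE 0.26, edgeR adjusted p = 0.389). *ckma* was at 1314 and 158 CPM in WT and 1228 and 299 CPM in *prdm1a*-/-. Adenylate kinase, which recovers ATP from ADP, had 137 and 23.0 CPM of *ak1* in WT and 155 and 69.4 CPM in *prdm1a*-/- (log2 fold change 0.87, SE 0.27, edgeR adjusted p = 0.203). The call on *ak1* was made only without the filter on low counts (adjusted p = 0.014), as was that on *tnnt3a* (adjusted p = 0.032). Of the glycolytic enzymes, *eno3* (muscle enolase) was at 193 and 91.7 CPM in WT and 189 and 169 CPM in *prdm1a*-/-, and *pgam2* (muscle phosphoglycerate mutase) at 33.9 and 2.14 CPM against 26.4 and 4.16 CPM.

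**Figure D3:**
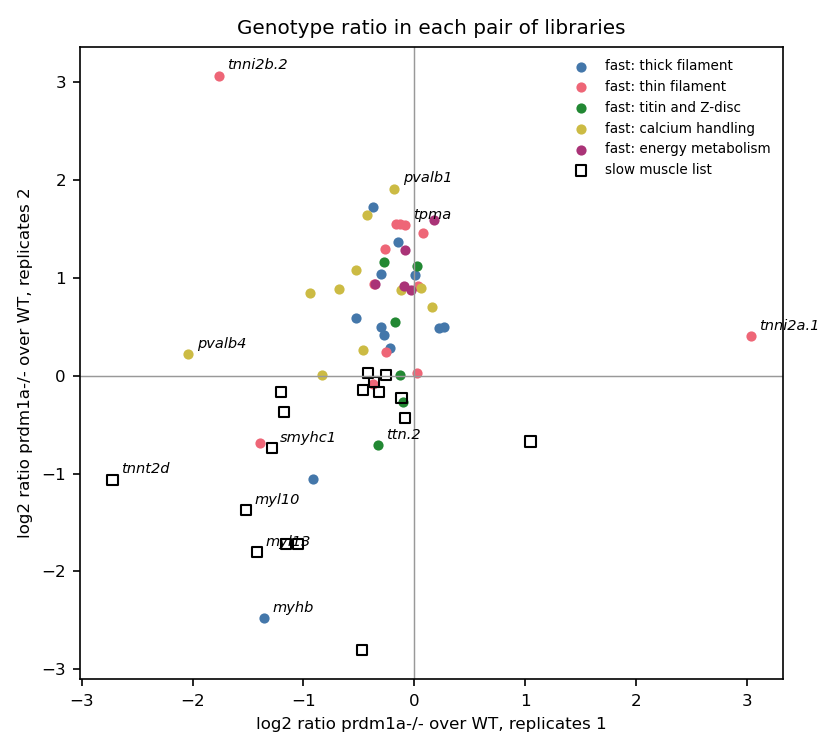
Log2 ratio of *prdm1a*-/- over WT in replicates 1 (horizontal axis) and in replicates 2 (vertical axis) for each fast muscle gene tested, colored by role, and for slow muscle genes (open squares). Most fast muscle genes lie above 0 on the vertical axis and near or below 0 on the horizontal axis (30 of 47 lower in the first pair and higher in the second). Of the slow muscle list, 14 of 17 genes, with the transcription factor *sox6* among them, lie below 0 on both.

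Slow muscle genes, mostly isoforms of the other fiber type, were set beside the fast ones. The list also holds transcription factors such as *sox6*, which is not a slow fiber isoform. It was lower in both pairs (log2 ratios -0.08 and -0.44) and is included in the counts, median and sums of the list. Those values are therefore not of slow isoforms alone. Of 17 tested, 5 were lower in *prdm1a*-/- and 0 higher (edgeR with the block, against 0.62% and 0.395% of all genes tested), the median log2 fold change was -0.80, and 14 of 17 were lower in both pairs (29.7% of all genes). *smyhc1*, the main slow myosin heavy chain of the embryo, was at 699 and 27.3 CPM in WT and at 287 and 16.3 CPM in *prdm1a*-/- (log2 fold change -1.03, edgeR adjusted p = 0.0143). The others were *smyhc2* (-1.38, adjusted p = 0.00525), the myosin light chain gene *myl10* (-1.46, adjusted p = 0.00253), *myl13* (-1.60, adjusted p = 0.00171) and the troponin T gene *tnnt2d* (-2.10, adjusted p = 0.0247). In edgeR with RLE size factors and the block, *tnnt2d* did not pass (adjusted p = 0.0712), while the other called genes did. In each of these 5 the genotypes overlapped, the level in *prdm1a*-/- replicate 1 lying above that in WT replicate 2, and with genotype alone in the edgeR model 0 of 17 were called. The CPM of *smyhc1* was 17.7% and 13.7% of that of *myhz1.1* in WT and 10.4% and 5.45% in *prdm1a*-/-, and the CPM of *myl10* was 7.89% and 4.83% of that of *mylpfa* in WT and 3.21% and 1.51% in *prdm1a*-/-. Both ratios, which are not scaled by gene length, were lower in *prdm1a*-/- within each replicate number and did not overlap between genotypes. They rest, however, on slow genes that were called lower in the same libraries. The lack of overlap also depends on the fast partner and does not hold for *smyhc1* with *myhz2*. Beside that gene, *smyhc1* was at 287 against 3238 CPM in *prdm1a*-/- replicate 1 and 27.3 against 438 CPM in WT replicate 2. Over the whole lists, the summed CPM of the slow genes was 5.70% and 19.0% of that of the fast genes in WT and 3.78% and 10.1% in *prdm1a*-/-, which was lower within each replicate number and overlapped between genotypes. The gene *tpm3*, at 437 and 480 CPM in WT and 366 and 483 CPM in *prdm1a*-/-, was a large part of the slow sums. Those sums were 1906 and 842 CPM in WT and 1089 and 733 CPM in *prdm1a*-/-. A difference between the fast and slow genes in their response to genotype was not tested.

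Of 22 myogenic regulators, 2 were called lower in *prdm1a*-/- and 0 higher (0.62% and 0.395% of all genes tested), and the median log2 fold change was 0.01. At an unadjusted p under 0.05 there were 12 of 22, with 6 higher and 6 lower, against 12.4% of all genes tested (6.4% higher and 6.05% lower). The 2 called were *myf5*, a determination factor of muscle precursors, at 22.3 and 25.4 CPM in WT and 11.5 and 12.8 CPM in *prdm1a*-/- (log2 fold change -0.98, edgeR adjusted p = 0.0492), and *eya1*, a transcriptional co-factor in muscle precursors, at 177 and 104 CPM against 106 and 61.6 CPM (log2 fold change -0.75, edgeR adjusted p = 0.0266). With the block, *myf5* did not pass in DESeq2 (adjusted p = 0.0846). Neither gene passed in edgeR with RLE size factors (adjusted p = 0.0869 and 0.0548). With genotype alone in the edgeR model 0 of 22 were called (0% of all genes). DESeq2 and limma-voom with the block each called 3 of 22 (1.21% and 2.17% of all genes). These calls went in both directions. The DESeq2 calls included *lbx1a* (adjusted p = 0.0482) and *lbx1b* (adjusted p = 0.0435), both higher in *prdm1a*-/-. The limma-voom calls included *met* (adjusted p = 0.0359), also higher. In the list 11 of 22 were higher in both pairs and 9 lower in both (29.7% of all genes each). In the other muscle lists, against 1.01% of all genes called, excitation-contraction coupling genes had 0 of 13 called, neuromuscular junction genes 0 of 8, further Z-disc, M-line and costamere genes 0 of 25 and other genes of glycolysis and energy supply 0 of 19, with medians of 0.08, 0.06, -0.03 and 0.20. The myosin chaperone list, not all of whose genes fold myosin, had 0 of 8 called and a median of 0.43. With the block, DESeq2 called 1 of 8 (1.21% of all genes) and limma-voom 2 of 8 (2.17%). In this list, *unc45b* was at 80.8 and 56.6 CPM in WT and 95.7 and 102 CPM in *prdm1a*-/- (edgeR adjusted p = 0.195). *hsp90aa1.1* was at 278 and 185 CPM against 352 and 437 CPM (edgeR adjusted p = 0.109). Both were without overlap between genotypes. Of the 8 genes 3 were higher without overlap (12.7% of all genes) and 1 lower (13.5%). *hsp90aa1.2* was at 42.5 and 598 CPM in WT and 33.1 and 1203 CPM in *prdm1a*-/-. The adjusted p of *hsp90aa1.1* was 0.0398 in DESeq2 and 0.0277 in limma-voom, both with the block.

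**Figure D4:**
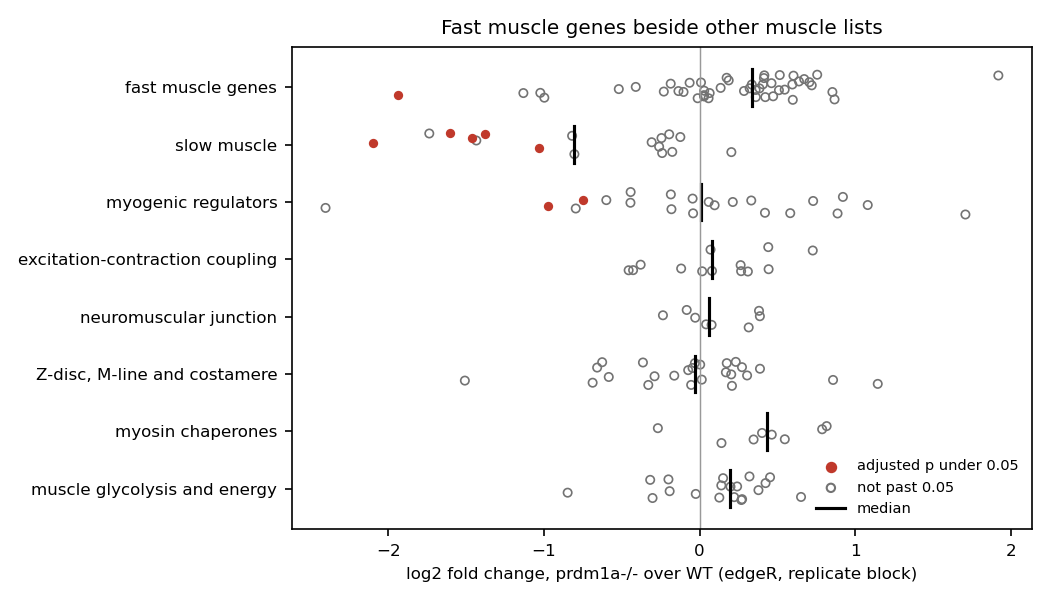
Fitted log2 fold changes of *prdm1a*-/- over WT (edgeR with the replicate block) for the fast muscle genes and the other muscle lists, 1 point per gene, filled red where the adjusted p was under 0.05, with a bar at each median. The fast muscle median was 0.34 with 1 of 47 called, and the slow muscle median was -0.80 with 5 of 17 called.

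Markers of other cells were read for the same libraries. Cartilage CPM also differed by replicate number, summing to 25551 and 2596 in WT and 20391 and 1602 in *prdm1a*-/- over 10 markers. By gene, 6 of 10 were higher in replicate 1 in both genotypes (37.1% of all genes), against 41 of 47 fast muscle genes. All 10 cartilage markers had fitted log2 fold changes below 0 (pair medians -0.31 and -0.70), while 50.7% of all genes were above 0. By pair, 5 of 10 were lower in both (29.7% of all genes), and 4 were higher in the first and lower in the second. With the block, edgeR called 0 of them (1.01% of all genes), and DESeq2 and limma-voom called 2 each (1.21% and 2.17%). Notochord markers summed to 1020 and 348 CPM in WT and 802 and 266 CPM in *prdm1a*-/- over 5 markers. This list shares a gene with the cartilage markers, and another of its genes marks the posterior fin bud in the paper. Its sum is thus not a separate measure of notochord cells. Of 12 fin mesenchyme markers, 1 was called with the block, *hand2*, lower in *prdm1a*-/- (0.62% of all genes), and 0 with genotype alone in the edgeR model. The 12 markers summed to 1298 and 1580 CPM in WT and 1208 and 1204 CPM in *prdm1a*-/-. Of these, 9 of 12 were higher in replicate 1 in both genotypes (37.1% of all genes), and without *sall4*, which was at 171 and 711 CPM in WT and 156 and 557 CPM in *prdm1a*-/-, the sums were 1127 and 869 CPM in WT and 1051 and 646 CPM in *prdm1a*-/-. Heart muscle markers summed to 500 and 270 CPM in WT and 422 and 349 CPM in *prdm1a*-/-. Of these, 0 of 10 were called (1.01% of all genes), and the defining *myl7* was at 17.8 to 29.7 CPM. Red blood cell markers had 4 of 12 called, all lower in *prdm1a*-/-, and neural crest and pigment markers 5 of 9, all lower (0.62% of all genes tested were called lower). With genotype alone in the edgeR model, 0 of 12 and 0 of 9 were called. The *prdm1a*-/- embryos had been picked by their pigment phenotype, so this choice coincides with genotype, and its part in these markers was not tested. The part of these other cells in the muscle results was not tested.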

How the data were processed

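For 2 WT and 2 *prdm1a*-/- libraries, the authors deposited whole-number counts per gene, made from trimmed read pairs with STAR 2.7.10b (danRer11) and featureCounts, and the sources used here do not name the gene models, strand setting or treatment of multi-mapped reads. The 4 deposited columns of log2 normalized values and the authors' own comparison (mean normalized count, fold change, standard error, test statistic and p-values) were not used, and the 6 CUT&RUN samples (24 hpf) were not analysed here.

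Counts were fitted with edgeR 4.0.16 (R 4.3.3, TMM, filterByExpr with a minimum count of 10 and a minimum total of 15, quasi-likelihood test, two-sided, Benjamini-Hochberg adjustment), with genotype and replicate number as terms, which leaves 1 residual degree of freedom (2 with genotype alone). The block was used because the genes were to be compared within replicate number. Whether libraries with 1 number were prepared together is stated neither in the labels nor in the paper. In the counts, libraries of 1 number deviated together from their genotype means (r = 0.70, computed across genes, and genes are not independent), and the common dispersion was 0.0446 with the block and 0.255 without. P-values and SEs therefore rest on the spread between sorted pools left after the block. Each SE was computed back from the log2 fold change and the test statistic, so it is not a measure separate from the p-value. With so few residual degrees of freedom, edgeR draws each gene's spread toward a value shared across genes. A small SE or p-value thus does not mean that the 2 pairs of that gene gave like ratios. Pair ratios are edgeR log2 CPM differences with a prior count of 2. Alternatives were genotype alone, DESeq2 1.42.0, limma-voom (limma 3.58.1), RLE size factors, other filters and leaving out each library, 13 fits in all, 2 of them (DESeq2 and limma-voom with genotype alone) chosen after seeing the data. On simulated data with 200 of 19752 genes changed 4-fold, edgeR recovered 99% with the block, with 15 false calls, and 0% without it. The simulated counts carried the replicate difference of the data, 1 dispersion for all genes and the same genotype change in both pairs. The changed genes were not among those of low level. The simulation thus favored the block by construction and does not bear on genes whose pairs disagree.

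Fast muscle genes could each be named. Genes named from the other lists were called in a fit with the block or were among the 3 with the highest mean CPM. The targeted gene is also named. The members and lists were chosen with earlier results of these data known. Gene order came from RefSeq, where 47 of 48 symbols matched.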

Additional observations from a re-analysis of the deposited data

How the results depend on the processing

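The number of fast muscle genes called was 1 with edgeR and the replicate block, and also with DESeq2, with RLE size factors and with a minimum of 10 counts in every library, each with the block. It was 2 with limma-voom and the block, 4 with no filter on low counts and the block (636 of 26140 genes called, 2.43%), and 0 without the replicate block in edgeR, DESeq2 and limma-voom. Without the replicate block the log2 fold change of *mylpfa* was -0.12 in edgeR and -0.12 in DESeq2, and that of *actc1b* was -0.048 and -0.051, against 0.03 and 0.51 with it in edgeR. In limma-voom without the block they kept their sign, at 0.021 and 0.50.

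Leaving out 1 library made the replicate numbers unequal between genotypes, so the difference between numbers enters these values by construction. These 4 fits used genotype alone and assume that the lone library varies like the other genotype. Leaving out 1 replicate number left a single pair, whose ratio has no test. The number called was 0 in each of the 4 fits. Over both kinds of omission, the median log2 fold change ranged from -1.22 to 2.20 and over the 4 fits the number above 0 ranged from 1 to 43 of 47. Ranges were -2.47 to -1.35 for *myhb*, -2.73 to 1.23 for *pvalb4*, -1.05 to 2.73 for *tpma*, -0.64 to 2.42 for *tnnt3a*, -0.29 to 2.29 for *ak1*, -1.21 to 1.38 for *mylpfa*, -1.34 to 2.14 for *myhz2*, -1.27 to 2.52 for *actc1b*, -1.73 to 1.64 for *atp2a1*, -1.28 to 2.67 for *ckmb*, -0.79 to 2.4996 for *tnnc2* and -1.45 to 0.31 for *ttn.2*. Of these 12 genes *myhb* alone kept its sign in each. It was also the only one of them whose genotypes did not overlap, which nearly assures a kept sign in such omissions. The other tested members without overlap (the second *myhz1.1* identifier, *acta1a* and *tnni2a.1*) were not among the 12. The kept sign therefore does not set *myhb* apart from them. Over the 12 genes and 168 values, 126 kept their direction and, where there was a test, their side of the threshold. The single-pair values were judged on direction alone.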
